A study of Mus musculus with 8 samples.

Results

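The genes described here are 7 genes of arginine and polyamine metabolism, out of 47937 gene IDs in the count tables: Slc7a2, Nos2, Ass1, Odc1, Srm, Sat1 and Acod1. They were chosen by name with results of these data known, that is, from their values in the comparisons of genotype and stimulation given below, so their levels and differences are a description and carry no test. The cells were bone marrow-derived dendritic cells (BMDCs), grown for 8 days from mouse bone marrow in GM-CSF, a growth factor that drives myeloid cells. WT cells came from Cre-negative mice. The other genotype, which the labels call Grk 3xKO and the study 3xGrk-/-, lacks the G-protein coupled receptor kinases GRK2, GRK3 and GRK6. It carries floxed Grk2 and Grk6 alleles cut by Vav-iCre on a Grk3-/- background, and Vav-iCre acts throughout the blood lineage, so that the deletion precedes the culture. All the mice were adults on a C57BL6/J background. Cells of each genotype were untreated (unstimulated) or received LPS, a bacterial wall component that matures dendritic cells, at 20 ng/ml for a day, and each of the 4 groups has 2 libraries. The study describes its RNA extractions as technical replicates, so the 2 libraries of a group may not be biological replicates.

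Arginine enters myeloid cells mainly through cationic amino acid transporters and then feeds competing enzymes. One route leads to ornithine and urea, whereas inducible nitric oxide synthase turns it into nitric oxide and citrulline, which argininosuccinate synthase starts to convert back to arginine. Ornithine is the source of the polyamines putrescine, spermidine and spermine, small cations that support growth and translation. Itaconate, made from a TCA cycle intermediate by the enzyme that Acod1 encodes, is another product of stimulated macrophages, and these routes are among the best known markers of macrophage activation.

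Library totals lay between 4713305 and 6933358 counts. The targeted transcripts were lower in 3xGrk-/- than in WT cells with no overlap between libraries, Grk2 by -1.11 without and -1.89 with LPS on the log2 scale and Grk6 by -1.19 and -1.54, but Grk3 by only -0.36 and -0.42. Gm42418, a gene that overlaps ribosomal RNA, took 2.16% of the counts in replicate 2 of the LPS-stimulated 3xGrk-/- group and between 0.273% and 0.638% in the others. The 2 libraries of that group also differed most from each other, with a mean chi-square per gene of 9.02. It was 3.07 in LPS-stimulated WT, 1.74 in unstimulated 3xGrk-/- and 1.59 in unstimulated WT cells. The summed CPM of 7 macrophage markers was 845 to 874 in unstimulated WT, 1360 to 1410 in unstimulated 3xGrk-/-, 332 to 333 in LPS-stimulated WT and 2400 to 2440 in LPS-stimulated 3xGrk-/- libraries. The 5 eosinophil markers summed to 905 to 961 and 896 to 966 in WT cells without and with LPS, against 54.0 to 57.6 and 36.2 to 42.4 in 3xGrk-/- cells. The sum of 8 dendritic cell markers, all of them above 3 counts in every group, was 18200 to 18400 and 13300 to 14600 in WT, and 10400 to 10600 and 11300 to 11600 in 3xGrk-/- libraries. Neutrophil markers (8 genes) summed to 698 to 742 and 335 to 391 in WT, and to 515 to 532 and 186 to 202 in 3xGrk-/- libraries. Mast cell and basophil markers (5 genes) summed to between 30.2 and 49.8, and 6 lymphocyte markers to no more than 0.764. In these bulk samples fewer cells of a type and less RNA per cell cannot be told apart. The sums did not describe every marker. Without LPS 4 of the 7 macrophage markers had a higher mean in 3xGrk-/- cells, such as Adgre1 and Csf1r, and 3 a lower one (C1qa at 18.6 against 57.0 CPM, C1qb at 41.6 against 160.2 CPM, and Fcgr1), whereas with LPS all 7 were higher. Of the 8 dendritic cell markers 4 were higher without LPS (Flt3, Itgax, Ccr7 and Batf3) and 2 with LPS, and the lower sum without LPS was mainly that of the MHC class II genes Cd74 and H2-Ab1, at 6392 and 1105 CPM against 11950 and 3526 CPM in WT without LPS. The part of these cell types in the gene levels below was not tested.

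**Figure D1:**
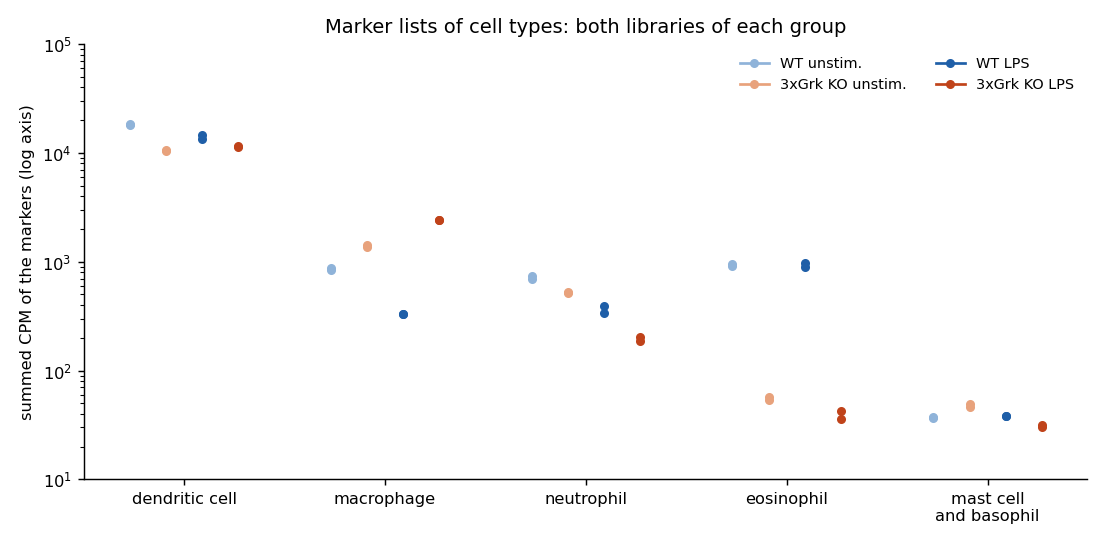
Summed CPM (log axis) of the marker lists of 5 cell types, with a point for each of the 2 libraries per group. Macrophage sums were higher and eosinophil, neutrophil and dendritic cell sums lower in 3xGrk-/- than in WT cells of the same stimulation.

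Promoter sequence from RefSeq (GRCm38.p6) was at hand for 4 of the 7 genes, Ass1, Odc1, Sat1 and Acod1. The 250 bases before the RefSeq start of Acod1 and Ass1 are shown because both genes were higher in 3xGrk-/- cells under both conditions, while after LPS Acod1 was higher and Ass1 lower in both genotypes. The windows are chr14:103046762-103047011 and chr2:31470020-31470269, both on the plus strand, with motif matches in capitals.
Acod1: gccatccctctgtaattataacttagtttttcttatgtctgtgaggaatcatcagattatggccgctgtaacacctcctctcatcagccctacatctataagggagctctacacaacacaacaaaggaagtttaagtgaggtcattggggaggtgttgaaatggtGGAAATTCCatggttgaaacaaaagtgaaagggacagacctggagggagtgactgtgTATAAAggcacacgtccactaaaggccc
Ass1: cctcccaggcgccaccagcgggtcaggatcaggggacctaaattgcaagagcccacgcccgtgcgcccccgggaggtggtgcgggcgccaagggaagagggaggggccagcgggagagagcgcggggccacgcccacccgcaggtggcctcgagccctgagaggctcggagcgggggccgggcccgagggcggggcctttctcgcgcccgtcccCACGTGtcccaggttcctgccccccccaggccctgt
In Acod1 the capitals mark GGAAATTCC, 85 to 77 bases before the start, and TATAAA, 28 to 23 bases before it. In Ass1 they mark the E-box CACGTG, 36 to 31 bases before the start. TATAAA was searched on the forward strand and lies in 7.59% of 32851 promoter windows of this length. The E-box, searched on both strands like the others, lies in 6.02%, and the palindrome GGAANTTCC, which resembles sites of the LPS-activated factor NF-kB and was added after the sequences had been read, in 0.813%. The same search for the NF-kB consensus by name (3.90% of windows), the partial CRE TGACGT (6.47%), the AP-1 motif TGANTCA (6.75%) and the C/EBP motif TTGCNNAA (9.56%) gave no match in any of the 4 genes, and Odc1 and Sat1 held none of the 7 motifs. These matches describe the letters in the windows only. In the GENCODE M21 annotation, which lists an earlier first base for both genes, the last stretch of each window lies inside the gene. That stretch holds the marked TATAAA of Acod1 and the E-box of Ass1, so the distances above hold for the RefSeq start only.

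Slc7a2 encodes CAT2, the inducible cationic amino acid transporter that brings arginine into macrophages, and lies at chr8:40862396-40922308 (plus strand). Its level in unstimulated WT libraries was 19.9 and 22.7 CPM (counts scaled to a common library size, with TMM factors of the 8 libraries), and 231.2 and 217.8 CPM in LPS-stimulated WT libraries. In 3xGrk-/- cells it was 457.7 and 466.2 CPM without LPS and 2693 and 2772 CPM with LPS. The groups thus stood in the order unstimulated WT, LPS-stimulated WT, unstimulated 3xGrk-/- and LPS-stimulated 3xGrk-/-, with no overlap between neighbours, and 3xGrk-/- cells without LPS were above WT cells with LPS. The genotypes differed by a log2 fold change of 4.43 (SE 0.065) without LPS, 21.5-fold, and of 3.61 (SE 0.060) with LPS, 12.2-fold. With LPS the level was 10.5-fold higher in WT and 5.92-fold higher in 3xGrk-/- cells, so the log2 response was 0.82 smaller in 3xGrk-/- cells (difference -0.82, SE 0.088). Per kilobase of exon, Slc7a2 had the highest level of the 7 genes in LPS-stimulated 3xGrk-/- cells, 299.2 ± 6.13 CPM per kb (SD, n = 2), ahead of Acod1 with 283.8 ± 0.240.

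**Figure D2:**
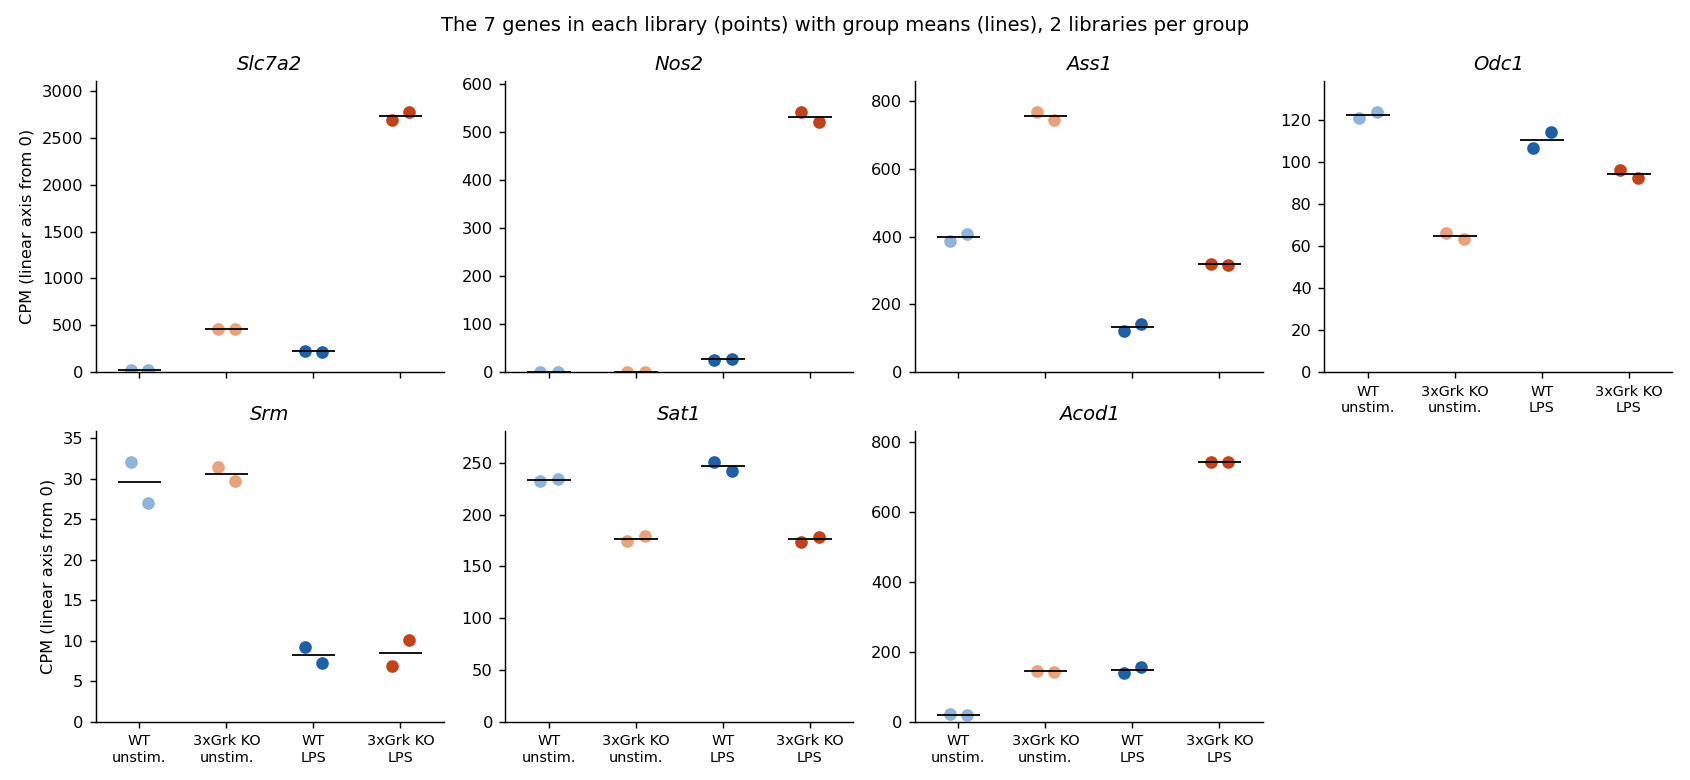
CPM of the 7 genes (linear axes from 0) in each library, with group means as lines and 2 libraries per group. Slc7a2, Nos2 and Acod1 were highest in the LPS-stimulated 3xGrk-/- libraries, Ass1 in the unstimulated 3xGrk-/- libraries, and Odc1 and Sat1 in WT libraries.

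Nos2 encodes inducible nitric oxide synthase, which makes nitric oxide from arginine (chr11:78920787-78960254, plus strand). Without LPS it had 0 and 2 counts in WT and 6 and 2 counts in 3xGrk-/- libraries, too few to pass the filter of the unstimulated comparison, and the ratio of summed counts of 3xGrk-/- to WT, scaled by library size, was 3.98 with a 95% interval of 0.793 to 38.4, which includes 1. Such intervals are given where a library had 3 counts or fewer, and cover counting error only. With LPS it reached 25.0 and 28.0 CPM in WT and 540.8 and 520.8 CPM in 3xGrk-/- libraries, a 19.9-fold difference (log2 4.32, SE 0.078). A genotype difference in Nos2 was therefore measurable in LPS-stimulated cells and not detectable at this depth without LPS. From unstimulated to LPS-stimulated cells, the ratio of summed counts was 165 (45.2 to 1370) in WT and 825 (418 to 1910) in 3xGrk-/- cells, 2 intervals that overlap. Per kilobase of exon, Nos2 was at 120.3 ± 3.21 CPM per kb in LPS-stimulated 3xGrk-/- and at 6.01 ± 0.48 in LPS-stimulated WT cells.

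Ass1, which joins citrulline to aspartate on the way back to arginine (chr2:31470207-31520672, plus strand), was higher in 3xGrk-/- than in WT cells but lower after LPS in both genotypes. Its level was 387.8 and 406.9 CPM in unstimulated WT and 766.5 and 745.0 CPM in unstimulated 3xGrk-/- libraries. With LPS it was 122.8 and 143.4 CPM in WT and 320.5 and 315.2 CPM in 3xGrk-/- libraries. None of the groups overlapped, and LPS-stimulated 3xGrk-/- cells remained below unstimulated WT cells. The genotypes differed 1.90-fold without LPS (log2 0.93, SE 0.039) and 2.38-fold with LPS (log2 1.25, SE 0.071). After LPS the level was 2.98-fold lower in WT and 2.38-fold lower in 3xGrk-/- cells, log2 responses that differed by 0.33 (SE 0.084). The E-box window shown above belongs to this gene.

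**Figure D3:**
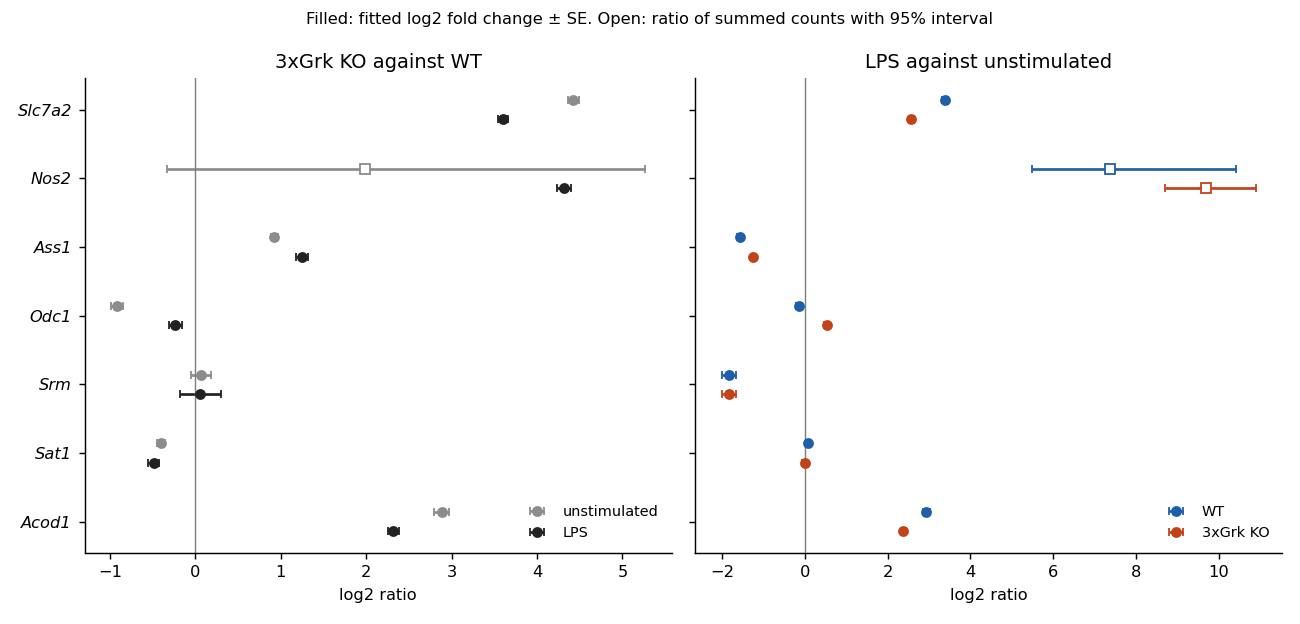
Log2 ratios of the 7 genes between genotypes (left) and between LPS-stimulated and unstimulated cells (right), as fitted log2 fold changes ± SE (filled) or ratios of summed counts with 95% intervals where a library had 3 counts or fewer (open). With LPS the largest genotype ratio was that of Nos2, 19.9-fold, and without LPS that of Slc7a2, 21.5-fold.

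Odc1, Srm and Sat1 stand for the polyamine branch: ornithine decarboxylase makes putrescine and limits the pathway, spermidine synthase makes spermidine, and spermidine/spermine acetyltransferase starts their breakdown and export. Odc1 (chr12:17544794-17551505, plus strand) was lower in 3xGrk-/- cells, at 66.4 and 63.6 CPM against 121.1 and 123.8 CPM in WT libraries without LPS, and at 96.4 and 92.4 CPM against 106.9 and 114.5 CPM with LPS. The difference was 1.88-fold without LPS (log2 -0.91, SE 0.068) and 1.17-fold with LPS (log2 -0.23, SE 0.077). The difference with LPS was not called with DESeq2, with no filter, without replicate 2 of the LPS-stimulated WT group or without either LPS-stimulated 3xGrk-/- library. With LPS 3xGrk-/- cells had 1.45 times the unstimulated level (log2 0.54, SE 0.075) and WT cells 0.904 times (log2 -0.15, SE 0.068), responses that differed by 0.68 (SE 0.10). The WT difference was not called in the fit over all genes, although the WT libraries with and without LPS did not overlap.

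Srm (chr4:148591503-148594993, plus strand) was lower after LPS in both genotypes. Unstimulated libraries had 32.1 and 27.1 CPM in WT and 31.4 and 29.7 CPM in 3xGrk-/- cells, and LPS-stimulated libraries 9.25 and 7.27 CPM in WT and 6.91 and 10.1 CPM in 3xGrk-/- cells. The genotypes overlapped under both conditions (log2 differences 0.07, SE 0.12, and 0.06, SE 0.24). With LPS the level was 3.57-fold lower in WT (log2 -1.84, SE 0.17) and 3.57-fold lower in 3xGrk-/- cells (log2 -1.84, SE 0.16), and the SE of the difference between these responses was 0.25. Sat1 (chrX:155213132-155216449, minus strand) was lower in 3xGrk-/- cells under both conditions. WT libraries had 232.9 and 234.6 CPM without and 251.1 and 242.6 CPM with LPS, 3xGrk-/- libraries 174.3 and 179.6 CPM without and 174.0 and 178.4 CPM with LPS. Sat1 was thus 1.32-fold lower in 3xGrk-/- cells without LPS (log2 -0.40, SE 0.049) and 1.40-fold lower with LPS (log2 -0.49, SE 0.064), while its 3xGrk-/- libraries overlapped between conditions (log2 -0.005) and its WT libraries differed by 0.08 (SE 0.054). Without TMM scaling these values became -0.22 in 3xGrk-/- and -0.14 in WT cells, both called lower.

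Acod1 (chr14:103046977-103056573, plus strand) makes itaconate and has no part in arginine breakdown, but is listed with these genes as a metabolic gene of stimulated macrophages. It was at 21.2 and 18.2 CPM in unstimulated WT and 146.6 and 141.5 CPM in unstimulated 3xGrk-/- libraries. LPS-stimulated WT libraries had 140.8 and 156.9 CPM, a range that encloses the unstimulated 3xGrk-/- values. LPS-stimulated 3xGrk-/- libraries stood apart at 744.8 and 743.9 CPM. The genotypes differed 7.39-fold without LPS (log2 2.89, SE 0.087) and 4.99-fold with LPS (log2 2.32, SE 0.066). The response was 7.64-fold in WT and 5.16-fold in 3xGrk-/- cells, a log2 difference of -0.56 (SE 0.11), so that Acod1, like Slc7a2, had a smaller relative response to LPS from a higher starting level. The window printed for Acod1 held a TATA motif and the NF-kB-like palindrome.

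In the edgeR fit over all genes, with calls at a Benjamini-Hochberg adjusted p under 0.05, 3 of the 7 genes were called higher and 2 lower in 3xGrk-/- cells without LPS (Nos2 was filtered out and Srm was not called), against a background of 22.1% of 12000 genes higher and 22.7% lower. With LPS 4 were called higher and 2 lower (Srm was not called), against 24.7% and 24.0% of 11830 genes, and 4 and 1 under the alternatives that lose Odc1. For LPS in WT cells 3 were called higher and 2 lower (3 and 4 without TMM scaling, with Odc1 and Sat1 added, 3 and 3 without replicate 2 of the LPS-stimulated WT group, and 2 and 3 with at least 10 counts in every library, where Nos2 was filtered out and Odc1 added), against 29.5% and 30.8% of 12541 genes, and in 3xGrk-/- cells 4 higher and 2 lower (4 and 3 without TMM scaling, with Sat1 added, and 3 and 2 with at least 10 counts in every library, where Nos2 was filtered out), against 28.0% and 27.4%. The difference between the LPS responses, 3xGrk-/- minus WT, was called positive for 2 genes (Odc1, and Ass1 with its smaller fall in 3xGrk-/- cells) and negative for 2, against 16.5% and 16.0%. Since the genes were chosen with these differences known, and Nos2 passes the filter only through the groups in which it is high, nothing is read from these counts. With a much wider spread between libraries, a biological coefficient of variation of 0.4 in place of the common values of 0.0306 to 0.0573 estimated from these libraries, the called genes would be 2, 3, 4, 4 and 0 in the same order.

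To place the 7 genes among their neighbours, 65 other genes of the same routes in 9 lists were read from the same fits. Without LPS, 17 of the 51 tested were higher and 8 lower in 3xGrk-/- cells (median log2 fold change 0.07, against -0.002 over all genes), a split that became 12 and 14 without TMM scaling, which moved the median of all genes by -0.085. With LPS, 9 of 50 were higher and 14 lower (median -0.07 against -0.007), or 6 and 16 without TMM scaling, where all genes moved by -0.088. DESeq2 called 8 genes without LPS (7 higher and 1 lower) and 13 with LPS. Without LPS the lower genes numbered 3 without replicate 2 of the unstimulated 3xGrk-/- group and 5 without either unstimulated WT library, with no filter or in 1 fit of 8 libraries. With LPS, leaving out replicate 2 of the LPS-stimulated 3xGrk-/- group left 14, 5 higher and 9 lower. In WT cells LPS changed 33 of 52, 19 higher and 14 lower (median 0.01 against -0.015), and in 3xGrk-/- cells 35 of 52, 12 higher and 23 lower (median -0.22 against -0.007). Without TMM scaling, which moved all genes by -0.215 and -0.218, these were 13 and 23 in WT and 6 and 34 in 3xGrk-/- cells. The response to LPS differed between genotypes for 17 of 52, of which 2 had a positive and 15 a negative difference, 3xGrk-/- minus WT (10 in all with DESeq2; 1 positive without any of 4 single libraries, either unstimulated 3xGrk-/- one or replicate 1 of either LPS-stimulated group). The pathway genes called in either direction were thus 49.0%, 46.0%, 63.5%, 67.3% and 32.7% of those tested for genotype without and with LPS, LPS in WT, LPS in 3xGrk-/- cells and the difference in response, against 44.7%, 48.6%, 60.3%, 55.4% and 32.5% of all genes, so most of these shares lay near the background. Counts in the single lists below rest on few tested genes and are to be set against these shares of all genes. With the coefficient of 0.4 the 5 counts over all lists were 2, 1, 3, 3 and 1, and 33 of the 43 calls of single pathway genes considered below were lost.

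**Figure D4:**
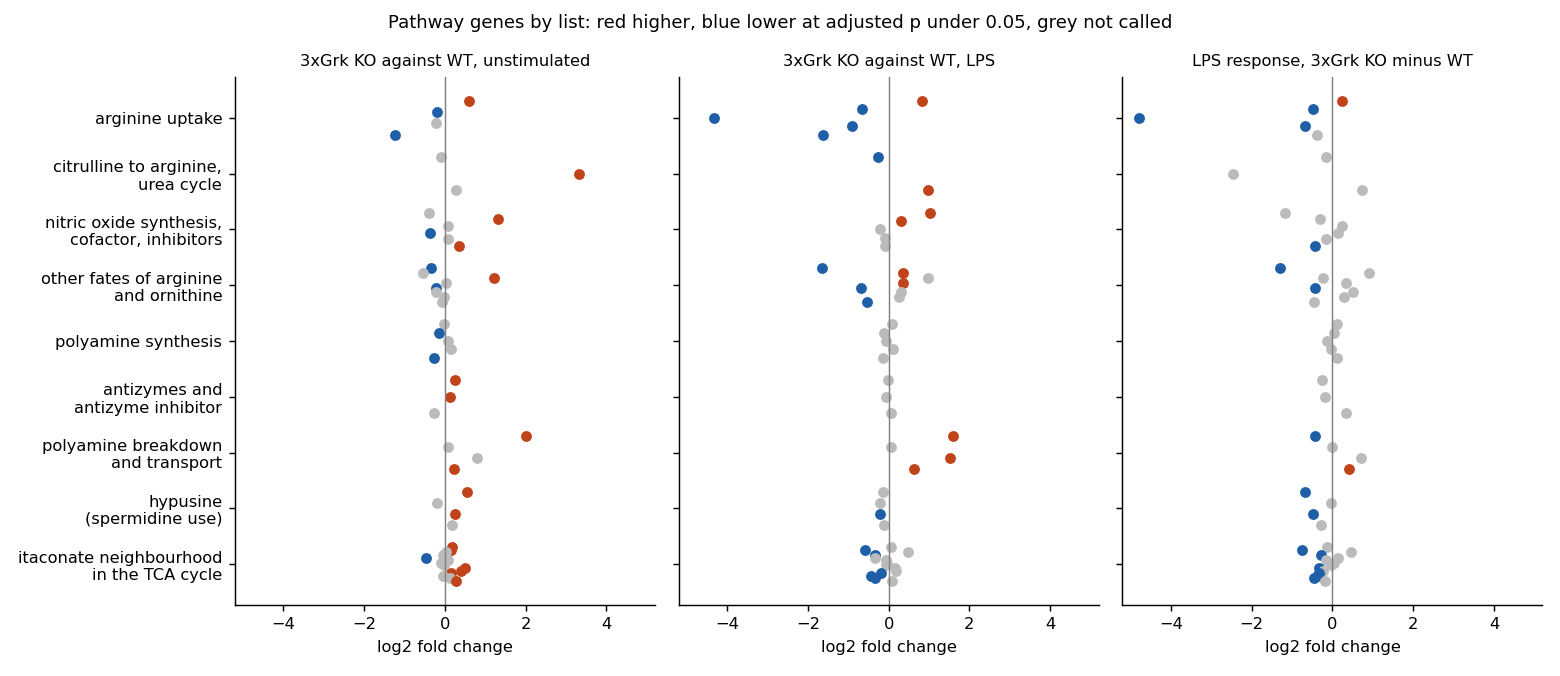
Log2 fold changes of the tested pathway genes by list, for 3xGrk-/- against WT cells without LPS (left) and with LPS (middle), and for the difference in LPS response (right), with red for higher, blue for lower and grey for not called at an adjusted p under 0.05. In the list of arginine uptake, 4 genes, among them Slc7a7 of an exporter, were lower and 1 higher with LPS.

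The 5 other genes in the list of arginine uptake are named in full, a choice made after their values were seen, so their p-values only describe the fit. That list is not one of importers only, since it also holds the y+LAT genes Slc7a7, of an exporter, and Slc7a6. With LPS, 4 of the 5 genes, including both y+LAT genes, were lower and 1 higher in 3xGrk-/- cells, while Slc7a2 was 12.2-fold higher. Slc7a3, which encodes the transporter CAT3, had 15.2 CPM in LPS-stimulated WT cells (184 counts in the 2 libraries) but 9 counts in LPS-stimulated 3xGrk-/- cells, a ratio of 0.0502 (95% interval 0.0226 to 0.0974). In unstimulated cells it had 1 to 4 counts per library in both genotypes, and the ratio of LPS-stimulated to unstimulated WT cells was 38.0 (16.0 to 118). Slc7a7, the light chain of the exporter y+LAT1, was lower without LPS (log2 -1.24, SE 0.12) and with LPS (log2 -1.62, SE 0.10, edgeR adjusted p = 2.78e-11), and rose after LPS in WT cells by 1.01 (SE 0.088) and in 3xGrk-/- cells by 0.64 (SE 0.12), responses whose difference was not called (edgeR adjusted p = 0.0634). Slc7a6 (y+LAT2) and Slc7a1 (CAT1, the constitutive transporter) were lower with LPS by -0.90 (SE 0.12) and -0.66 (SE 0.093), with edgeR adjusted p of 2.3e-06 and 4.97e-06. Slc3a2, the heavy chain that the y+LAT light chains share with other transporters, was higher without LPS (0.60, SE 0.048) and with LPS (0.82, SE 0.062, edgeR adjusted p = 4.14e-10). Per kilobase of exon, WT cells without LPS had more Slc7a1 (5.82 ± 0.17 CPM per kb) than Slc7a2 (2.33 ± 0.22), and 3xGrk-/- cells without LPS had more Slc7a2 (50.6 ± 0.66) than Slc7a1 (5.10 ± 0.68; SD, n = 2).

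**Figure D5:**
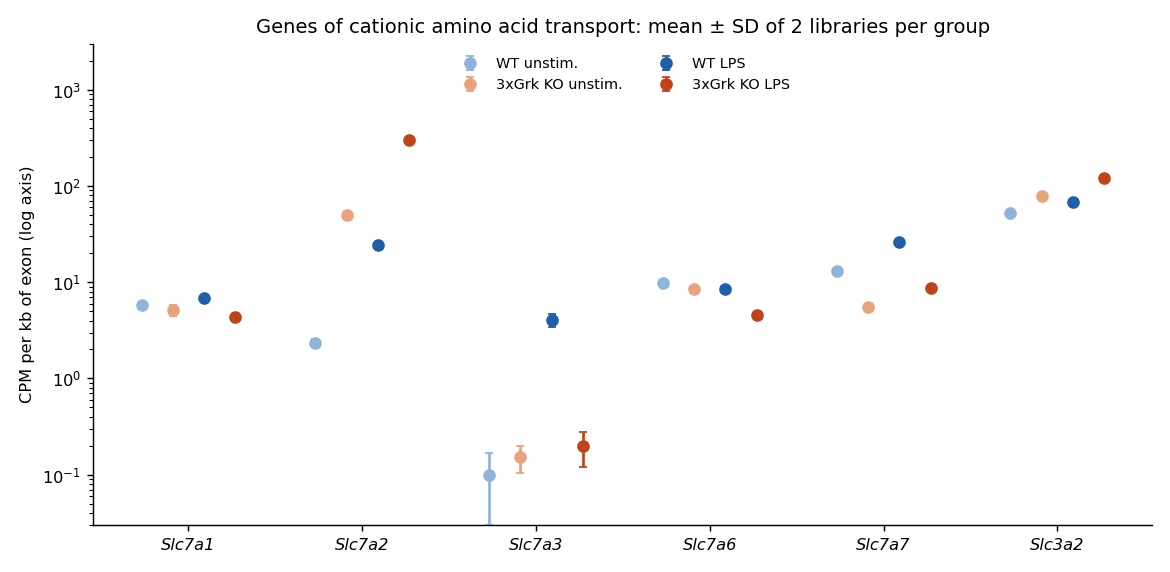
Mean CPM per kb of exon ± SD of 2 libraries per group (log axis) for Slc7a2 and the 5 other genes of the uptake list. Slc7a2 ran from 2.33 in unstimulated WT to 299.2 in LPS-stimulated 3xGrk-/- cells, and Slc7a3 was above 1 CPM per kb in LPS-stimulated WT cells only.

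Nitric oxide synthase needs the cofactor tetrahydrobiopterin, and Gch1, which encodes the first enzyme of its synthesis, was among the genes called. It was higher in 3xGrk-/- cells without LPS, at 41.8 ± 4.51 against 16.8 ± 0.90 CPM (log2 1.32, SE 0.12, edgeR adjusted p = 5.21e-26), and with LPS, at 54.9 ± 0.20 against 27.1 ± 0.85 CPM (log2 1.02, SE 0.11, adjusted p = 6.27e-08). In that list 2 of 6 tested genes were higher without LPS, Gch1 and Spr (log2 0.352, SE 0.0805), and 1 was lower, Pts (-0.365, SE 0.109). With LPS 2 of 5 were called, both higher, Gch1 and Nosip (0.305, SE 0.0944), or 1 higher and 1 lower without TMM scaling. Pts, Spr and Qdpr were not called with LPS (log2 -0.225, -0.091 and -0.089). DESeq2 called 1 of 6 without and 1 of 5 with LPS. Ddah2, which breaks down inhibitors of the synthase, was lower after LPS in 3xGrk-/- cells (7 against 27 counts, ratio 0.276, 95% interval 0.102 to 0.651), a call lost with DESeq2 and without replicate 2 of the LPS-stimulated 3xGrk-/- group. In WT cells its log2 difference of -0.69 (SE 0.40) was not called, and neither was the difference between the responses (edgeR adjusted p = 0.233).

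Arginine also feeds creatine synthesis, and ornithine is linked to proline and glutamate. Aldh18a1, the first enzyme from glutamate to proline and ornithine, was lower in LPS-stimulated 3xGrk-/- cells, at 29.9 ± 5.08 against 93.6 ± 6.84 CPM (log2 -1.66, SE 0.11, edgeR adjusted p = 6.17e-11). Without LPS the difference was -0.35 (SE 0.081), and the responses to LPS differed by -1.31 (SE 0.14, edgeR adjusted p = 2.7e-08). In that list 2 of 8 were higher and 3 lower with LPS, of which only the 3 lower were called without TMM scaling, and DESeq2 called 2 of 8. Azin2, an antizyme inhibitor related to ornithine decarboxylase, rose after LPS in both genotypes (log2 2.31, SE 0.21, and 3.21, SE 0.22), and Gatm, which makes guanidinoacetate from arginine, rose after LPS in WT cells by 0.71 (SE 0.13) and in 3xGrk-/- cells by 1.03 (SE 0.13), responses whose difference was not called (edgeR adjusted p = 0.202). Gamt, the next enzyme towards creatine, was higher in 3xGrk-/- cells without LPS (6.88 ± 0.84 against 2.88 ± 0.29 CPM, log2 1.23, SE 0.28), which DESeq2 did not call, and fell after LPS in both genotypes by -1.22 (SE 0.42) in WT and -1.46 (SE 0.30) in 3xGrk-/- cells; the fall in WT was not called by DESeq2, nor without replicate 2 of either WT group.

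Among genes of citrulline and the urea cycle, 3 were tested without and 2 with LPS. Without LPS 1 of 3 was called, Nags, which was higher (1 higher and 1 lower without TMM scaling), and DESeq2 called 1 of 3. With LPS edgeR called 2 of 2 and DESeq2 0 of 2. Asl, of the route from citrulline to arginine that Ass1 starts, was lower with LPS in 3xGrk-/- cells (log2 -0.26, SE 0.086) and not called without LPS (-0.09, SE 0.07). The ornithine carrier gene Slc25a15 was higher with LPS (0.99, SE 0.32). Nags, whose product activates the first urea cycle enzyme, had 4 counts in unstimulated WT and 40 in unstimulated 3xGrk-/- libraries. Their ratio was 9.94 (95% interval 3.59 to 38.3). LPS-stimulated 3xGrk-/- libraries had 7 counts (ratio to unstimulated 0.187, 0.0705 to 0.421), while the difference between the LPS responses of Nags was not called (edgeR adjusted p = 0.145). The gene of that first enzyme, Cps1, had 0 counts in all 8 libraries, and Otc, another urea cycle gene, at most 2 in any library. Slc25a15, the mitochondrial ornithine carrier, fell after LPS in WT cells by -1.23 (SE 0.30) from 6.22 ± 1.47 CPM. In 3xGrk-/- cells its difference was -0.51 (SE 0.24), not called, and the responses were not shown to differ (edgeR adjusted p = 0.17).

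Other genes of polyamine synthesis were not called between LPS-stimulated genotypes: 0 of 5 tested by edgeR, 0 at an unadjusted p under 0.05 and 0 by DESeq2, but 1 lower (Mat2a) without TMM scaling, and without LPS 2 of 5 were called, both lower (Sms, spermine synthase, -0.26, SE 0.11, and Mat2a, -0.15), of which DESeq2 called 0 of 5, also at an unadjusted p under 0.05. Antizymes and the inhibitor Azin1, which set the stability of ornithine decarboxylase, gave 2 of 3 higher without LPS (Azin1, 0.25, SE 0.064, and Oaz1, 0.12, SE 0.049). Without TMM scaling 1 was higher and 1 lower, and DESeq2 called 0 of 3 (1 at an unadjusted p under 0.05). With LPS 0 of 3 were called by edgeR, at an unadjusted p under 0.05 or by DESeq2. The inhibitor Azin2, placed in another list above, was called higher in LPS-stimulated 3xGrk-/- cells (log2 0.35, SE 0.14, edgeR adjusted p = 0.0486). That call was lost without TMM scaling. In breakdown and transport 2 of 4 were called without LPS and 3 of 4 with LPS, all higher in 3xGrk-/- cells, against 44.7% and 48.6% of all genes called in either direction. DESeq2 called 1 and 2 of 4, and the count without LPS was 1 without TMM scaling. Atp13a2, which exports polyamines from lysosomes, was at 165.7 ± 5.85 against 40.6 ± 1.0 CPM without LPS (log2 2.02, SE 0.071) and at 123.7 ± 0.18 against 41.4 ± 3.83 CPM with LPS (log2 1.58, SE 0.091, edgeR adjusted p = 4.52e-12). Smox, spermine oxidase, rose after LPS in WT (log2 1.87, SE 0.074) and in 3xGrk-/- cells (log2 2.27, SE 0.070). Paox, an oxidase of acetylated polyamines, was higher in LPS-stimulated 3xGrk-/- cells (2.15 ± 0.30 against 0.763 ± 0.20 CPM, log2 1.51, SE 0.50), a call lost with DESeq2 and without any of 3 single libraries, either 3xGrk-/- one or replicate 2 of WT. Eif5a, the translation factor that carries the spermidine-derived residue hypusine, fell after LPS in both genotypes, from 508.9 to 328.7 CPM in WT (log2 -0.63, SE 0.052) and from 611.6 ± 12 to 282.5 ± 12.5 CPM in 3xGrk-/- cells (log2 -1.12, SE 0.053), and the fall was larger in 3xGrk-/- cells (difference -0.49, SE 0.074, edgeR adjusted p = 6.41e-06).

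Around itaconate in the TCA cycle all 14 listed genes were tested. Without LPS 6 were higher and 1 lower in 3xGrk-/- cells (3 and 3 without TMM scaling), and with LPS 5 were called, all lower. The 6 genes whose response to LPS differed all had the more negative response in 3xGrk-/- cells. Over all genes 44.7%, 48.6% and 32.5% were called in either direction in these comparisons. DESeq2 called 2, 3 and 3 of the 14 in these comparisons. Idh3a, a subunit of isocitrate dehydrogenase that uses isocitrate, fell after LPS by -1.35 (SE 0.13) in WT and -1.22 (SE 0.15) in 3xGrk-/- cells. Clybl, a mitochondrial enzyme of itaconate removal, fell after LPS in WT cells by -1.48 (SE 0.38), from 3.99 ± 0.30 to 1.44 ± 0.28 CPM, and in 3xGrk-/- cells by -1.03 (SE 0.35), from 3.99 to 1.94 CPM. The fall in 3xGrk-/- cells was not called by DESeq2, nor without replicate 1 of either 3xGrk-/- group. Acod1 itself was 4.99-fold higher with LPS, as given above.

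Over the 8 libraries, the genes most like each of the 7 by Pearson correlation of log2 CPM among 9150 genes are given as a description, since the points share only 4 group means. Those nearest to Slc7a2 were Eaf1, Nrp2 and Dab2 (r = 0.9964 or more), and those nearest to Acod1 were the chemokine gene Ccl3 (r = 0.9988), Arhgef10l and the vitamin D receptor gene Vdr. Nos2 was most like Rtp4 (r = 0.9981) and the MHC class I genes B2m and H2-D1, the last a member of a multigene family whose reads may be shared. Ass1 was nearest to Pgd, Aprt and Ncln, Srm to Abce1, Pald1 and Dhcr7. Odc1 was nearest to Ear2, an eosinophil ribonuclease gene of a family of near copies, with r = 0.9957, then to Plbd1 and Stard10 (r = 0.9722). Sat1 was nearest to Uvrag, Plxnc1 and the targeted gene Grk6 (r = 0.9883). Within the 7 genes, Slc7a2 and Acod1 were the closest pair (r = 0.986) and Nos2 and Srm the most opposed (r = -0.904).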

How the data were processed

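BMDCs of 2 genotypes, unstimulated or LPS-stimulated, gave 8 RNA-seq libraries, grouped by the sample labels. Per the study's methods, RNA was extracted in technical replicates, more of them than the 2 libraries per group used here. The SDs and p-values may therefore measure technical spread only. The authors deposited raw read counts per gene (whole numbers, not normalized) in a table for each stimulation. They ran snakePipes 2.1.0, with STAR 2.7.3a on mm10 and featureCounts 2.0.0. The annotation release and strand setting are not given in the sources used here. IDs were named from GENCODE M21 on GRCm38 (47224 of 47937 matched without version), which also gave exon lengths and coordinates.

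edgeR 4.0.16 in R 4.3.3 (TMM, filterByExpr, glmQLFit, glmQLFTest, Benjamini-Hochberg) compared genotypes within each table. LPS responses and the interaction came from 1 fit of 8 libraries. Fits were tested on simulated data. Where a library of a group had 3 counts or fewer, the ratio of summed counts with its exact 95% interval replaces the fitted fold. An exact permutation test of 2 against 2 libraries cannot go below p = 0.333.

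The 7 genes and all lists were chosen with earlier results of these data known. Besides the 7 genes and the 3 targeted genes, the named genes were, per comparison, at most the 8 largest called pathway genes with a log2 change of 1 or more in size and no overlap, and for each of the 7 the 3 tested genes with a mean log2 CPM of at least 3 that correlated best with it. Others were named after their values were seen. Some genes of these routes and markers are not reported here. Alternatives were DESeq2 1.42.0, size factors by RLE, scaling by library size alone, fits of unfiltered genes, a minimum of 10 counts per gene in each library, the replicate number as a block, a biological coefficient of variation of 0.4, leaving out each library, and 1 fit of 8 libraries for genotype.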

Additional observations from a re-analysis of the deposited data

Results flagged for a closer look

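The response to LPS differed between genotypes, as 3xGrk-/- minus WT on the log2 scale, for 8 of the pathway genes named above in edgeR's interaction test with Benjamini-Hochberg adjustment, 2 of them by 1 or more in size. For Slc7a3 the fitted difference was -4.792 (SE 1.0, adjusted p = 0.000387), a value that rests on 1 to 4 counts per unstimulated library and is no bound. For Aldh18a1 it was -1.305 (SE 0.14, adjusted p = 2.7e-08). The others were Eif5a at -0.485 (adjusted p = 6.41e-06), Slc7a6 at -0.684 (0.000726), Slc7a1 at -0.471 (0.00463), Atp13a2 at -0.438 (0.00368), Smox at 0.401 (0.00376) and Slc3a2 at 0.225 (0.0301). The Slc3a2 call was lost with DESeq2 and without any single library other than replicate 2 of either WT group, and the Slc7a1 call with DESeq2 and without replicate 1 of the unstimulated 3xGrk-/- group. At a biological coefficient of variation of 0.4 all of these calls but that of Slc7a3 were lost. For Odc1 the log2 difference after LPS was -0.145 in WT, which the fit over all genes did not call, and 0.536 in 3xGrk-/- cells, with both libraries lower in WT and both higher in 3xGrk-/- cells. The responses differed by 0.681. That difference was among those called in the fit over all genes, but no p is given because the gene was chosen with its values known.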

How the results depend on the processing

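DESeq2, RLE size factors, no filter, at least 10 counts in every library, 1 fit of 8 libraries and the replicate block moved the log2 differences of the 7 genes by at most 0.039. Library size only moved them by -0.219 to -0.002, and turned the sign of Sat1 for LPS in WT, from 0.078, not called, to -0.137, called. Other sign changes were of Srm and Sat1, in differences not called in the reported fits. Leaving out single libraries moved them by -0.311 to 0.243. Pathway genes called numbered 25 without LPS, 23 with LPS, 33 for LPS in WT, 35 for LPS in 3xGrk-/- cells and 17 for the interaction. DESeq2 called 8, 13 and 10 for the first, second and last. A biological coefficient of variation of 0.4 left 2, 1, 3, 3 and 1, and 2, 3 and 0 of the 7 genes in place of 5, 6 and 4 (genotype without and with LPS, interaction). The cause of the DESeq2 difference was not tested. Leaving out 1 library gave 14 to 24 pathway genes with LPS, 14 without replicate 2 of the LPS-stimulated 3xGrk-/- group. The replicate numbers did not pair the libraries (correlations of deviations -0.018 to 0.033), and with the replicate number as a block the pathway counts were 24, 22, 33, 34 and 17. Of 43 calls of named pathway genes, DESeq2 lost 9, and 33 were lost at the coefficient of 0.4. Genes with few counts per library, such as Nos2 without LPS, Slc7a3 and Nags, are limited by depth.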
